A study of Oryza sativa with 12 samples.

Results

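Leucine breakdown in plants runs in the mitochondrion and hands its electrons to a small relay, the electron transfer flavoprotein. Described here across a sucrose starvation experiment are 6 rice genes tied to this breakdown or to the relay, called the route for short. They are IVD (LOC4337676), MCCA (LOC4352741), D2HGDH (LOC4342598), ETFA (LOC4334698), ETFB (LOC4335102) and ETF-QO (LOC4349116). The genes were taken by name, as those whose symbol or synonym in a RefSeq gene table is IVD, D2HGDH, MCCA or MCCB or begins with ETF, with or without Os. All 6 matching genes were among the 15798 genes on the array, where 8 probes measured them. No gene of the table matched MCCB.

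Rice (Oryza sativa) cells in suspension culture were deprived of sucrose in Murashige and Skoog medium for 12, 24 or 48 h, and their polyadenylated RNA was hybridised beside that of control cells on Agilent 2-colour arrays. Control cells spent the same time in that medium with 3% sucrose in 3 of the groups. The last group set cells starved for 12 h against control cells given 88 mM sorbitol, which the design text gives as the osmotic control. For that control the sample labels give no sucrose amount. Each of the 4 groups had 3 arrays, 12 in all, called here by their replicate numbers 1 to 3. The labels name no cultivar, gave the starved cells Cy5 and the control cells Cy3 on every array, and give no word on whether replicate arrays were separate cultures. The spread behind each p-value is thus that between arrays, which may be technical.

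As background, a cell without sugar can burn amino acids instead. Isovaleryl-CoA dehydrogenase, the product of IVD, oxidises an intermediate of leucine breakdown, and MCCA encodes the biotin-carrying alpha subunit of methylcrotonoyl-CoA carboxylase, which acts on the next intermediate. D2HGDH encodes D-2-hydroxyglutarate dehydrogenase, which in Arabidopsis passes electrons to the same flavoprotein although its substrate is not a leucine intermediate. ETFA and ETFB encode the alpha and beta subunits of that flavoprotein, and ETF-QO encodes the membrane-bound oxidoreductase that takes its electrons on to ubiquinone in the respiratory chain. In Arabidopsis this relay is known for its need in prolonged darkness, when carbohydrate runs out.

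All values below are log2 ratios, starved cells over control cells, given per array or as the mean ± SD of 3 arrays (n = 3). A ratio says nothing of the level in either cell population, so the labelled cell type could not be checked against marker levels and no level was compared between genes. The channel order of the deposited ratios is not stated. On the arrays against sucrose, the starvation-induced alpha-amylase genes RAmy3D and RAmy3E were positive 9 times of 9, with lowest ratios of 1.17 and 1.71, as the dye labels would give. Against sorbitol their ratios lay between -0.43 and 0.05, so there the direction rests on the dye labels alone. No array had its dyes swapped, and dye bias of a probe stayed in every mean ratio. The array-wide spread differed, with an SD of log2 ratios of 0.64 to 1.26 on the 9 arrays against sucrose and 0.30 to 0.38 on those against sorbitol.

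Most genes of the route rose in cells without sucrose at each time, read gene by gene, since no test of the group was made. All 6 genes rose at 12 h (limma, adjusted p under 0.05), where 5.04% of the 18270 features tested were called higher. At 24 h 5 of the 6 rose against a background of 4.73%, with MCCA not passing, and at 48 h 5 rose against 12.4%, with ETF-QO not passing. None of the 6 was called lower at any time, against 4.04%, 3.87% and 13.0% of features. The median of the 6 mean log2 ratios was 1.66 at 12 h, 1.13 at 24 h and 1.15 at 48 h, beside 0.00, 0.00 and 0.01 over all features tested. In bulk cultures like these, a change in the share of cells of a type and a change in RNA per cell cannot be told apart.

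Array by array, all 54 values of the 6 genes on the 9 arrays against sucrose lay above 0, and 36 of them were at least 2-fold. For ETFA and MCCA these are averages of 2 probes, the lower of which fell below 0 on some of these arrays. The share of all features that were at least 2-fold was not counted, so the 2-fold counts have no background here. IVD was at least 2-fold higher on 9 of 9 arrays and D2HGDH on 8, followed by MCCA on 6, ETFB on 5, and ETFA and ETF-QO on 4 each. IVD gave the highest ratio of the 6 genes on 6 arrays and D2HGDH on the other 3. Every gene was above 0 on each array of each of the 3 times, which held for 21.9% of all features at 12 h, 21.6% at 24 h and 27.5% at 48 h.

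**Figure D1:**
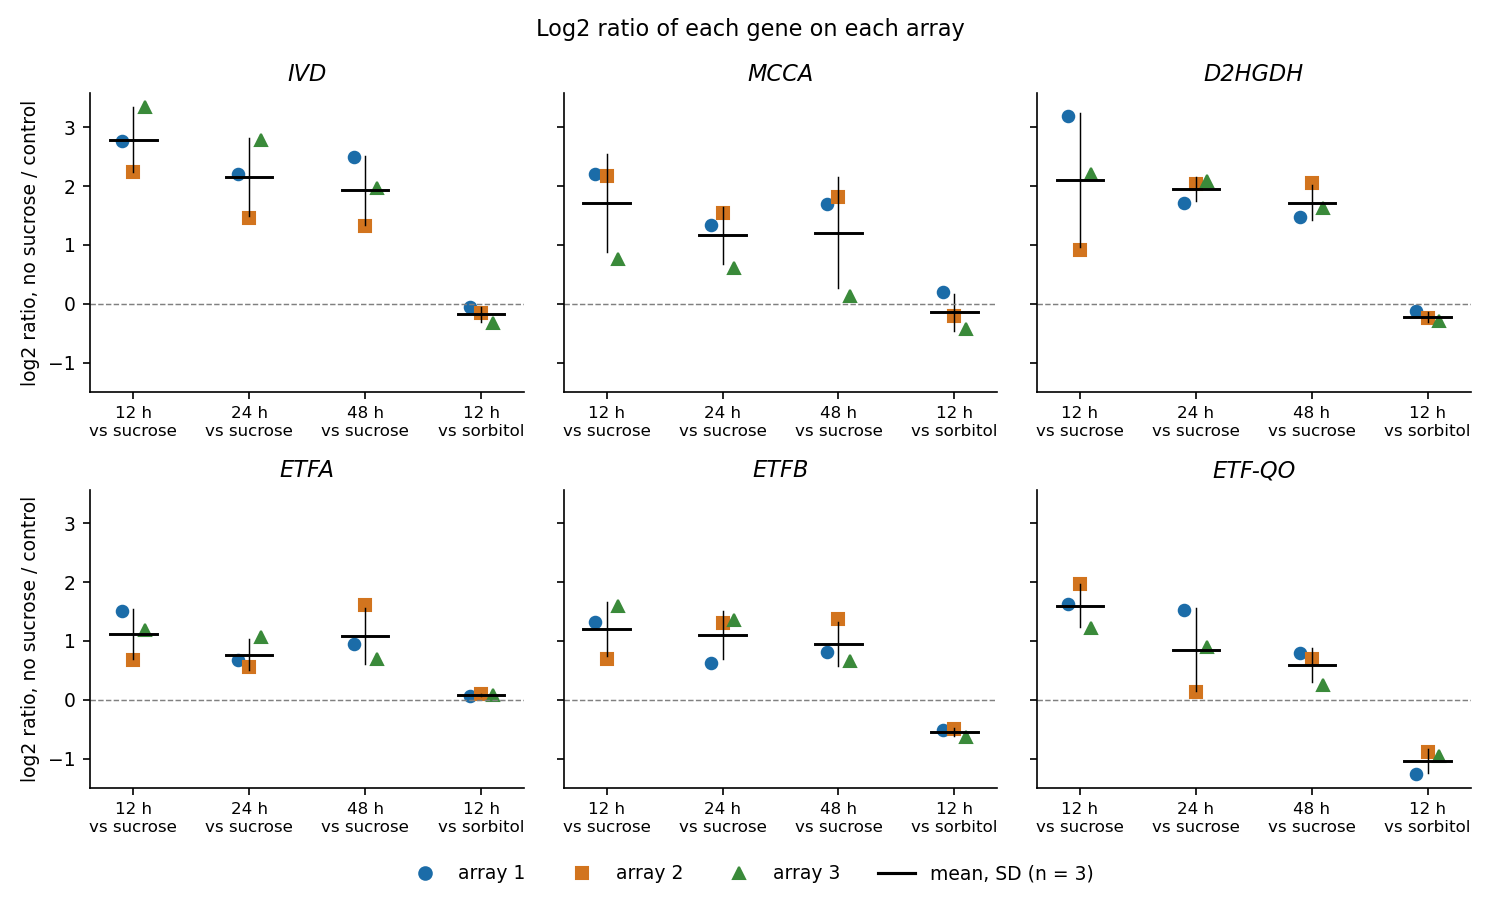
Log2 ratio (starved over control cells) for each of the 6 genes, 1 panel per gene, with a symbol for each array, a bar for the mean and a line for the SD (n = 3). All 54 points against sucrose lie above the dashed line at 0, while the points against sorbitol lie between -1.26 and 0.20.

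Among the leucine enzymes, IVD had log2 ratios of 2.77, 2.24 and 3.34 on arrays 1 to 3 at 12 h, 2.20, 1.46 and 2.78 at 24 h, and 2.49, 1.33 and 1.96 at 48 h. Array 2 was the lowest for IVD at each time, and the 3 times overlapped. The mean at 12 h was 2.78 ± 0.55, a 6.88-fold rise, which placed IVD 40th from the top of 18270 features (limma adjusted p = 0.000253). It rose 4.42-fold at 24 h (2.14 ± 0.66, limma adjusted p = 0.000935) and 3.8-fold at 48 h (1.93 ± 0.58, limma adjusted p = 0.000606). On single arrays against sucrose, between 88.7% and 99.9% of measured features had a lower ratio than IVD. The IVD calls at all 3 times were kept under each of the 26 alternative settings run.

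MCCA, which acts after IVD, spread more widely between arrays. Its log2 ratios were 2.21, 2.17 and 0.76 at 12 h, 1.34, 1.54 and 0.61 at 24 h, and 1.69, 1.81 and 0.13 at 48 h. Array 3 was the lowest in each of the 4 groups, sorbitol included, and was far below the other two at 12 and 48 h. The means were 1.71 ± 0.83 at 12 h (limma adjusted p = 0.0108), 1.16 ± 0.49 at 24 h (limma adjusted p = 0.0578) and 1.21 ± 0.94 at 48 h (limma adjusted p = 0.0245). In this fit the gene thus rose at 12 and 48 h, while its 2.24-fold mean at 24 h did not pass. That pattern depended on how the arrays were handled. With arrays scaled to a common spread, quantile normalization or array weights, MCCA passed at 24 h (limma adjusted p = 0.0381, 0.0453 and 0.011). Under the same settings it did not pass at 48 h (0.0734, 0.0786 and 0.0912). The 48 h call was also lost with least-squares p-values (0.0679) and without the sorbitol arrays (0.0554). When array 3 of every group was left out, all 3 times passed, with 1.44 and a limma adjusted p of 0.0048 at 24 h. That setting was chosen after array 3 was seen to be the lowest, so that a higher mean follows from the choice. With the replicate number as a block MCCA also passed at 24 h (limma adjusted p = 0.00531). The block pairs all 12 arrays by number, which a check of the arrays bore out for all 3 numbers only between 24 and 48 h.

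Both probes of MCCA were lowest on array 3 at each time against sucrose, but they differed in size. Probe 11990 gave 2.38, 3.06 and 1.68 at 12 h, 2.02, 2.16 and 1.11 at 24 h, and 2.08, 3.02 and 0.72 at 48 h, above 0 on all 9 arrays. Probe 1731 gave 2.05, 1.28 and -0.17 at 12 h, 0.67, 0.92 and 0.11 at 24 h, and 1.30, 0.61 and -0.46 at 48 h. Tested alone, probe 1731 passed at none of the 3 times, with limma adjusted p-values of 0.112, 0.384 and 0.383, so the calls of MCCA rest on probe 11990.

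D2HGDH had log2 ratios of 3.18, 0.91 and 2.20 at 12 h, where array 1 was high and array 2 low, 1.71, 2.04 and 2.08 at 24 h, and 1.48, 2.06 and 1.62 at 48 h. The later arrays all fell within the range of the 12 h arrays. The gene rose 4.27-fold at 12 h (2.10 ± 1.14, limma adjusted p = 0.00191), 3.84-fold at 24 h (1.94 ± 0.21, limma adjusted p = 0.00277) and 3.29-fold at 48 h (1.72 ± 0.30, limma adjusted p = 0.00233). Between 93.7% and 99.5% of features lay below it on single arrays against sucrose, and its calls at the 3 times were kept under all 26 alternatives.

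The flavoprotein subunits had smaller mean ratios than IVD and D2HGDH at each time, a difference between genes that was not tested. ETFA had log2 ratios of 1.51, 0.67 and 1.19 at 12 h, 0.68, 0.56 and 1.06 at 24 h, and 0.95, 1.61 and 0.69 at 48 h, where array 2 rests on 1 of its probes. ETFB, the partner subunit, had 1.32, 0.70 and 1.59 at 12 h, 0.63, 1.31 and 1.35 at 24 h, and 0.81, 1.38 and 0.66 at 48 h. For both subunits the 3 times overlapped, and array 2 was the lowest at 12 h. ETFB was highest on array 2 at 48 h, whereas the 48 h array 2 value of ETFA lacks probe 9313, the lower of its probes on every other array against sucrose, so that this value and the 48 h mean stand higher for want of it. ETFA rose 2.18-fold at 12 h (1.12 ± 0.43, limma adjusted p = 0.00734), 1.7-fold at 24 h (0.77 ± 0.26, limma adjusted p = 0.041) and 2.12-fold at 48 h (1.09 ± 0.47, limma adjusted p = 0.0037). The rise of ETFB was 2.3-fold at 12 h (1.20 ± 0.46, limma adjusted p = 0.00606), 2.14-fold at 24 h (1.09 ± 0.41, limma adjusted p = 0.00885) and 1.93-fold at 48 h (0.95 ± 0.38, limma adjusted p = 0.00879).

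The probes of ETFA did not agree. Probe 11107 gave ratios of 1.67, 1.15 and 1.99 at 12 h, 1.39, 1.66 and 1.86 at 24 h, and 1.95, 1.61 and 1.16 at 48 h. Probe 9313 gave 1.35, 0.19 and 0.38 at 12 h and -0.02, -0.54 and 0.26 at 24 h, and its 48 h values were -0.04 on array 1 and 0.22 on array 3, with a blank on array 2. From 24 h on, the second probe lay around 0 while the first was more than 2-fold up on every array. Alone, probe 9313 had a mean of 0.64 at 12 h (limma adjusted p = 0.12) and -0.10 at 24 h (limma adjusted p = 0.827). The direction of ETFA at 24 h therefore depends on the probe, and which transcript each probe matches was not analysed here.

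**Figure D2:**
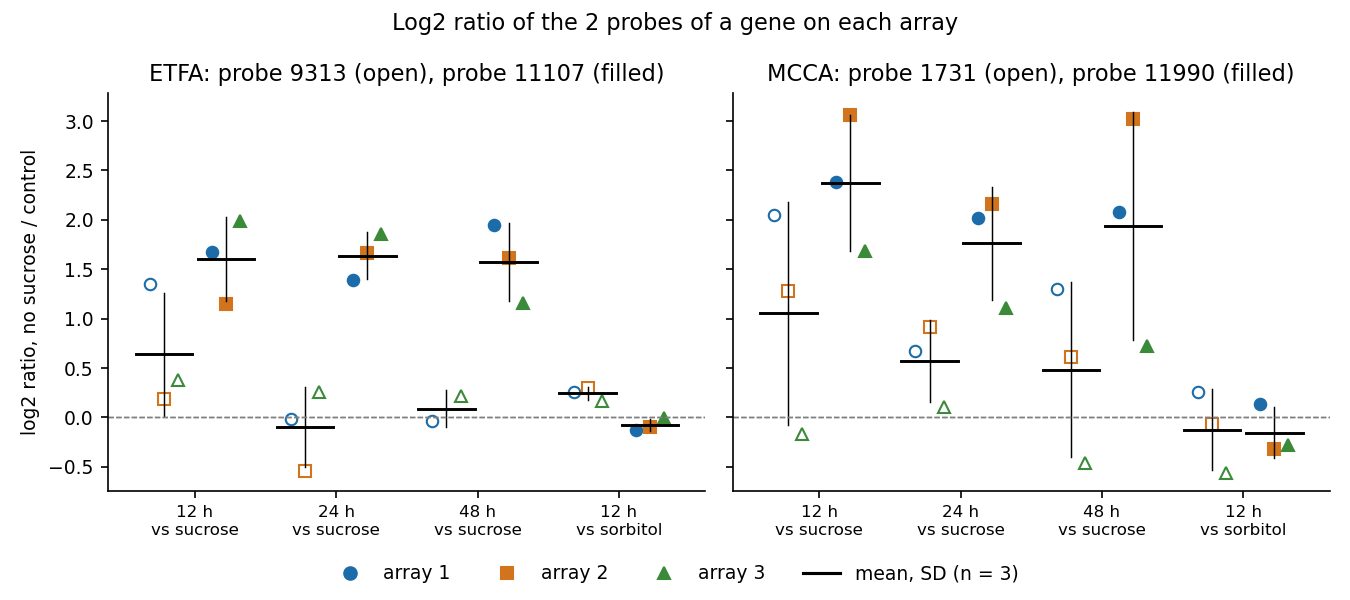
Log2 ratio of each probe of ETFA (left) and MCCA (right) on each array, with open symbols for the lower and filled symbols for the higher probe number, a bar for the mean and a line for the SD (n = 3, except 2 arrays for probe 9313 at 48 h). Probe 11107 of ETFA stays between 1.15 and 1.99 against sucrose while probe 9313 falls to -0.54 at 24 h, and probe 1731 of MCCA lies below probe 11990 on every array against sucrose.

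ETF-QO, the last step of the relay, had its highest ratios at 12 h. Its log2 ratios were 1.62, 1.96 and 1.22 at 12 h, 1.53, 0.13 and 0.90 at 24 h, and 0.80, 0.70 and 0.26 at 48 h. All 12 h arrays were above all 48 h arrays, and array 2 at 24 h lay near 0. The gene rose 3.03-fold at 12 h (1.60 ± 0.37, limma adjusted p = 0.00235). The 1.81-fold rise at 24 h only just passed (0.85 ± 0.70, limma adjusted p = 0.0492) and was lost under 16 of 26 alternatives, and the 1.5-fold mean at 48 h did not pass (0.59 ± 0.29, limma adjusted p = 0.0984). On single arrays it lay above 96.5% to 98.9% of features at 12 h, 59.3% to 96.5% at 24 h and 70.7% to 86.9% at 48 h, so the later times overlapped.

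Single arrays decided some of these calls. Without array 1 at 12 h, ETFA (adjusted p = 0.0864), ETFB (0.0592) and MCCA (0.118) no longer passed there, and MCCA also did not pass without array 2 (0.0702). At 24 h ETFA was lost without any 1 of the 3 arrays of that time (adjusted p of 0.116 to 0.137), ETFB was lost without array 2 (0.0819), and ETF-QO was lost without array 1 (0.319) or array 3 (0.094). Arrays of other groups also counted at 24 h through the shared spread: ETFA and ETF-QO were lost without any 1 sorbitol array (0.0692 to 0.0786), and ETF-QO without 12 h array 1 or 2 or 48 h array 1 (0.0543 to 0.0594). At 48 h ETFB was lost without array 2 (0.0956), and MCCA without array 1 (0.137) or array 2 (0.206). With only the 3 arrays of a time in the fit, the genes called higher numbered 5 at 12 h against a background of 2.61%, and 2 each at 24 h (1.20%) and 48 h (2.62%). IVD and D2HGDH were the 2 at both later times, and ETFA was the gene lost at 12 h (limma adjusted p = 0.0573).

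**Figure D3:**
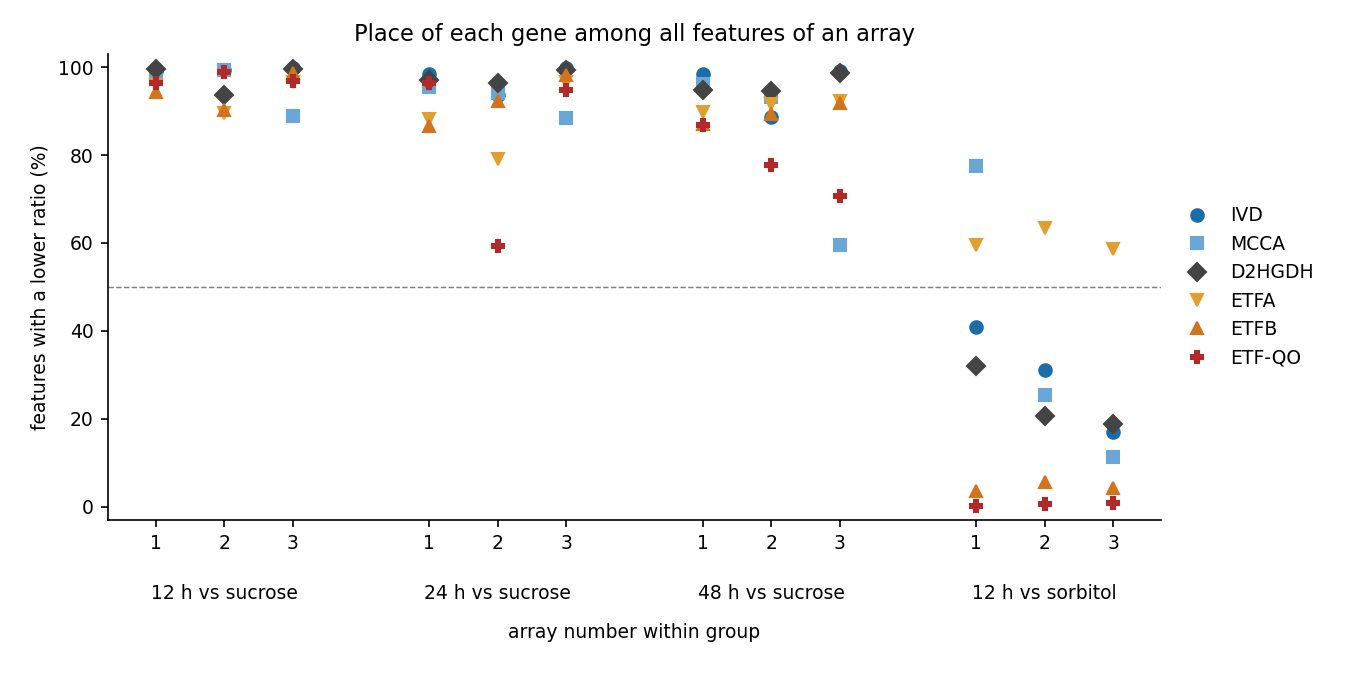
Share of measured features with a lower ratio than each gene (percent, vertical axis) on each of the 12 arrays (horizontal axis, by group), with a symbol for each gene and a dashed line at the middle of the features. At 12 h all 6 genes lie above 88.9% of features, and against sorbitol ETF-QO lies above fewer than 1% on each array with the direction of the dye labels, or above 99.2% or more with the sign turned.

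The differences between times were then tested directly. None of the 6 genes passed in any of the 3 differences, where the same limma fit called 0 of 18178 features between 12 and 24 h, 0 of 16889 between 24 and 48 h, and 1 of 16824 between 12 and 48 h (0.00594%, lower at 48 h). At an unadjusted p under 0.05 there were 695, 487 and 1676 such features. The largest shift among the 6 was that of ETF-QO, which was 1.01 lower on the log2 scale at 48 than at 12 h, with a 95% interval from -1.77 to -0.26 (limma adjusted p = 0.376). Its arrays of those times did not overlap, which held in this direction for 6.25% of features. IVD differed by -0.86 between the same times, with an interval from -1.72 to 0.00 (limma adjusted p = 0.505), and overlapped. D2HGDH and ETFB had differences of -0.38 and -0.25, ETFA of -0.04 and MCCA of -0.50, with 95% intervals that all included 0. Intervals of this width do not show that the genes held a constant ratio.

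Against sorbitol the picture of the 6 genes was another one. None passed in either direction, and the same fit called 10 of 19435 features higher (0.0515%) and 0 lower, with 1262 at an unadjusted p under 0.05. The log2 ratios of IVD were -0.06, -0.15 and -0.32, those of D2HGDH -0.12, -0.24 and -0.29, those of MCCA 0.20, -0.20 and -0.42, and those of ETFA 0.06, 0.10 and 0.08. These 12 values ran from -0.42 to 0.20, with IVD and D2HGDH below 0 and ETFA above 0 on every array.

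ETFB and ETF-QO stood lower in that comparison. ETFB had log2 ratios of -0.51, -0.49 and -0.63, and ETF-QO had -1.26, -0.89 and -0.95. All 3 arrays agreed for each gene, and ETF-QO lay above only 0.0308%, 0.622% and 0.746% of features on arrays 1 to 3. If the channels ran the other way on these arrays, it would lie above 99.2% of features or more on each. The mean of ETF-QO was -1.03 ± 0.20, or 0.488 of the level in sorbitol, 40th from the bottom of 19435 features, or 40th from the top with the sign turned (limma adjusted p = 0.242), and that of ETFB was -0.54 ± 0.08 (limma adjusted p = 0.684). With only the 3 sorbitol arrays in the fit, where the spread is that of these less variable arrays, both were called lower, with limma adjusted p-values of 3.63e-05 for ETF-QO and 0.000723 for ETFB. That fit called 17.6% of all features lower and 18.3% higher, so such a call was common there. Of the 6 genes, 4 were below 0 on every array and 1 above, against 31.0% and 31.7% of all features.

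The sorbitol and sucrose controls were compared through the starved cells of the 12 h groups. No sucrose amount is given for the sorbitol control, so added sorbitol and a lack of sucrose were not tested apart. The mean against sucrose minus the mean against sorbitol is the log2 ratio of cells in sorbitol over cells in sucrose if the starved cells of both sets were alike, and dye bias cancels in it where it was equal on both sets. With the direction of the dye labels, IVD, ETF-QO, D2HGDH and ETFB passed as higher in sorbitol than in sucrose, where 1.00% of 18260 features were called higher. With the sign of the ratios against sorbitol turned, an alternative chosen after seeing the data, 3 genes passed, IVD, D2HGDH and ETFA, where 2.39% of features were called higher. With the direction of the dye labels, the 3 arrays of one group did not overlap those of the other for any of the 6 genes. All were higher, which held for 16.2% of features. With the sign turned ETF-QO overlapped, since its -1.26 on sorbitol array 1 is larger in size than its lowest 12 h value against sucrose, 1.22.

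IVD was 2.96 higher on the log2 scale, or 7.77-fold, with a 95% interval from 2.10 to 3.81 (limma adjusted p = 0.00536), and ranked 31st of 18260 features. For ETF-QO the value was 2.63, or 6.2-fold, with an interval from 1.88 to 3.38 (limma adjusted p = 0.00534). The group means behind this difference were 1.60 and -1.03 for ETF-QO, whereas those of IVD were 2.78 and -0.18. D2HGDH was higher by 2.31 (1.36 to 3.27, limma adjusted p = 0.0252) and ETFB by 1.75 (1.08 to 2.42, limma adjusted p = 0.0195). MCCA, at 1.85 (0.78 to 2.92, limma adjusted p = 0.0914), and ETFA, at 1.04 (0.39 to 1.69, limma adjusted p = 0.115), did not pass. With the sign turned, IVD was 2.61 (limma adjusted p = 0.00586), D2HGDH 1.88 (0.0345) and ETFA 1.20 (0.0434), while MCCA at 1.57 (0.0986), ETFB at 0.66 (0.262) and ETF-QO at 0.56 (0.402) did not pass. The calls of ETF-QO and ETFB and their place among the 6 genes therefore depend on a direction that only the dye labels give.

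The calls of D2HGDH and ETFB were lost without array 1 or 3 of the 12 h arrays against sucrose and without any 1 of the sorbitol arrays, with adjusted p-values of 0.0602 to 0.137. IVD and ETF-QO passed with each array left out in turn, but without all arrays numbered 3 their adjusted p-values were 0.0708 and 0.0555. Arrays against sucrose and against sorbitol correlated weakly at 12 h, from -0.136 to 0.288 over all probes.

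**Figure D4:**
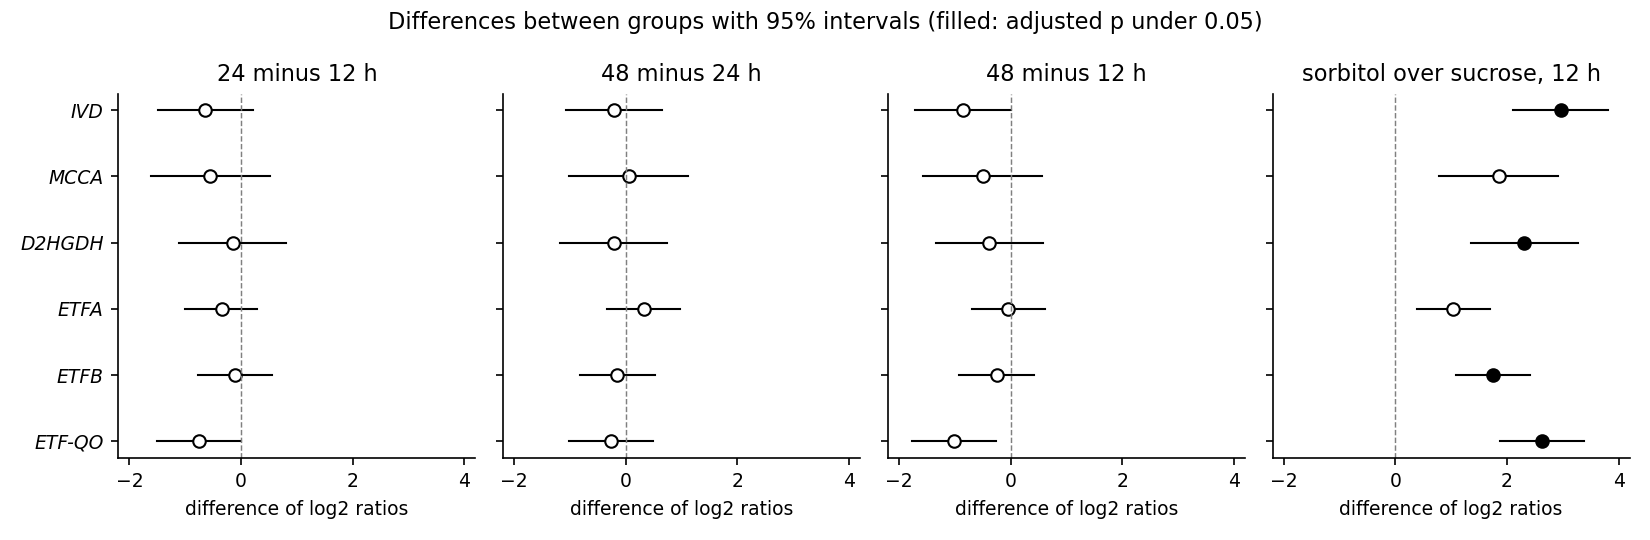
Difference of mean log2 ratios for each of the 6 genes between times (first 3 panels) and between controls at 12 h (last panel), with 95% intervals from the limma fit and filled points where the adjusted p is under 0.05. No time difference passes. In the last panel, drawn with the direction of the dye labels, 4 of the 6 genes pass, from 1.75 for ETFB to 2.96 for IVD; ETFB and ETF-QO do not pass with the sign against sorbitol turned.

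Other genes of amino acid and energy metabolism give the surroundings of the route. A list of further branched-chain amino acid breakdown genes matched no gene by symbol or synonym. The list of other amino acid breakdown genes had 6 genes on the array. Of those tested, 3 of 5 rose at 12 h, 2 of 6 at 24 h and 2 of 5 at 48 h, with median log2 ratios of 1.12, 0.44 and 0.50. Over all features 5.04%, 4.73% and 12.4% were called higher at these times, and 13.0% lower at 48 h. GDH2 (LOC4336554), a glutamate dehydrogenase that releases the amino group of glutamate, rose by 2.63 ± 0.55, 1.81 ± 0.30 and 2.52 ± 0.54 at the 3 times, close to the size of IVD. HGO (LOC4339844), the homogentisate dioxygenase of tyrosine breakdown, rose by 1.72 ± 0.43, 1.60 ± 0.46 and 1.87 ± 0.64. With the direction of the dye labels both were also higher in sorbitol than in sucrose, HGO by 2.27 and GDH2 by 2.17 (limma adjusted p = 0.0119 for each). One gene of the list fell at 48 h, ALDH5F1 (-0.85 ± 0.28, limma adjusted p = 0.0422), which was named after its value was seen.

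The respiratory chain receives the electrons of ETF-QO. Of 9 of its genes, 7 for subunits of succinate dehydrogenase with COX5c and AOX1, none rose at any time. Among all features 5.04%, 4.73% and 12.4% were called higher, so a count of 0 of 9 lies near those shares. The medians were 0.04, -0.06 and -0.41. AOX1 (LOC4336874), the alternative oxidase, fell at 48 h by 1.66 on the log2 scale (SD 0.93, limma adjusted p = 0.00307). It was the only one of the 9 called lower then, beside 13.0% of all features. A list made for peroxisomal fatty acid breakdown and the glyoxylate cycle had 5 genes on the array, ICL, MFP, OsPEX11-1, OsPEX11-2 and OsPEX11-4. The PEX11 genes do not encode breakdown enzymes. Of the list's tested genes, 0 of 4 rose at 12 h, 1 of 5 at 24 h and 2 of 4 at 48 h. The list's medians were 0.33, 0.78 and 1.50, whereas the median of the 6 leucine and flavoprotein genes was highest at 12 h. Only the 24 h median counts OsPEX11-4. MFP went the other way, with 0.30, -0.10 and -0.41, and was never called. No gene of either set passed in the 48 minus 12 h difference, and the order of the medians was not tested. ICL (LOC4343441), the isocitrate lyase of the glyoxylate cycle, had 1.90 ± 0.95 at 12 h (limma adjusted p = 0.122) and 3.39 ± 2.44 at 48 h (limma adjusted p = 0.00558). OsPEX11-2 (LOC4339973, also annotated as PEX11-5) of the same list rose by 1.65 ± 1.06 at 48 h (limma adjusted p = 0.00292).

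**Figure D5:**
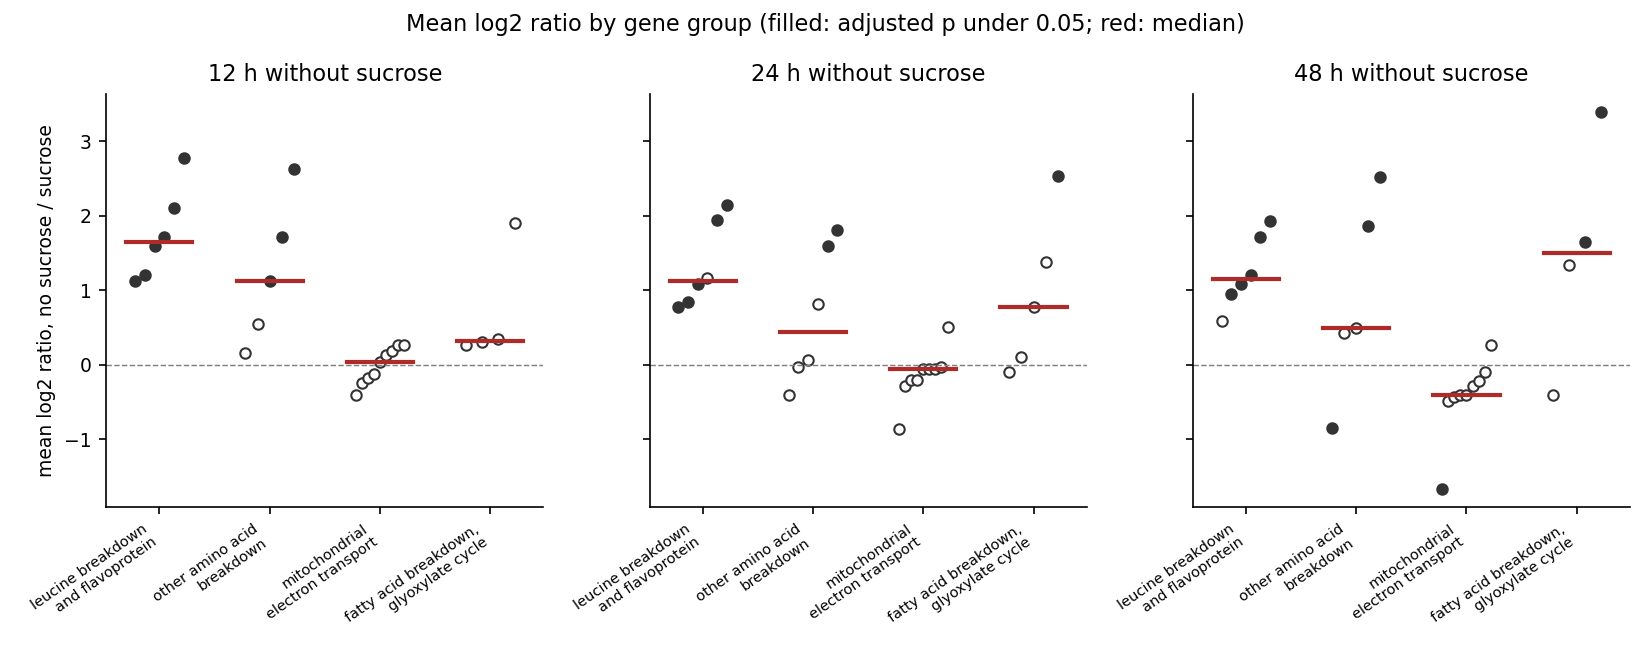
Mean log2 ratio of cells without sucrose over cells in sucrose for every tested gene of 4 gene groups at 12, 24 and 48 h, filled where the limma adjusted p is under 0.05, with the group median as a red bar. The leucine and flavoprotein genes have medians of 1.66, 1.13 and 1.15, while the mitochondrial electron transport genes have medians of 0.04, -0.06 and -0.41. The group labelled fatty acid breakdown and glyoxylate cycle also holds PEX11 genes, which do not encode breakdown enzymes.

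Markers of other plant cell types were read beside these results. Of 5 seed storage protein genes none rose, with medians of 0.02, -0.17 and -0.05 at 12, 24 and 48 h, and 1 fell at 48 h, GLB (LOC4337720, -0.79 ± 0.92, limma adjusted p = 0.047), named after its value was seen. Over all features 5.04%, 4.73% and 12.4% were called higher at these times, and 13.0% lower at 48 h. Of 4 tested photosynthesis genes 2 rose at each time, PSAH (1.83 ± 0.06 at 12 h) and PSBW (2.01 ± 0.71). Both were named after their values were seen, and the medians were 1.31, 1.43 and 1.06. The other tested genes were not called at any time. CAB1R had 0.80, 0.52 and 0.35, and OsPSAG 0.52, -0.62 and -0.10, so the genes of this list did not move together. The part of any green cells in the ratios of the 6 genes was not tested.

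By pattern over all 12 arrays, the named genes nearest to IVD, by root mean square difference of log2 ratios among 1841 named genes with a value on every array, were actin-6 (LOC4337330, 0.29), the hexokinase gene HXK6 (LOC4338010, 0.58) and GDH2 (0.67), beside a median of 2.09. Nearest to D2HGDH were OsSK3 (LOC4337165, 0.43), actin-6 (0.47) and the protein kinase gene OsSAPK6 (LOC4329630, 0.57), beside a median of 1.78. For ETF-QO they were CERK1 (LOC4346173, 0.51), which encodes a receptor kinase for chitin, ta5 (LOC4336158, 0.55) and OsSK1 (LOC4330732, 0.60), beside 1.28. The 3 genes thus had different neighbours apart from actin-6, which was shared by IVD and D2HGDH with mean log2 ratios of 2.50, 1.97 and 1.90 against sucrose and -0.14 against sorbitol. Within the route, D2HGDH was the closest to IVD (0.71) and ETF-QO the farthest (1.30), while ETFB was the closest to ETF-QO (0.69). These distances describe the 12 arrays and carry no test.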

How the data were processed

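The authors deposited 1 table of processed values, with 21495 probes and a column for each of 12 arrays, and scanner intensities were not used here. The deposited values were read as natural log ratios of the channels and turned to log2. In 2 columns the minimum equalled the natural log of 0.01, and on 12 h array 1 316 values were logs of single-decimal ratios on that scale (tolerance 1e-05), against 79 on log2 and 83 on log10. Columns with few such values (12 h array 3, 24 h array 3 and the sorbitol arrays, 4 to 6 each) were taken to share the scale. Background correction, centring, software and signal over background are not given in the sources used here. Blank cells (2.41% in all, 13.6% on 48 h array 2) were not filled in.

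Probes were named through the array's GEO annotation and a RefSeq gene table (assembly ASM3414082v1), in which 100% of the gene IDs were found. Of the probes, 17839 had 1 gene and 3656 were kept unnamed. No genome positions were used. Available probes of a gene were averaged, which gave 19454 features.

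The linear model (limma 3.58.1 in R 4.3.3, with eBayes moderation) had a mean for each of the 4 groups, all 12 arrays together. Features with a blank on any array compared were not tested. The 8 comparisons used two-sided tests, Benjamini-Hochberg adjusted across the features tested, at a threshold of 0.05. The groups share 1 estimate of the spread although the sorbitol arrays varied less. Calls with only the arrays compared are therefore given beside those of this fit. The number of arrays limits the precision.

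Every gene of the route is named, with the 2 called genes of largest mean per list and comparison, RAmy3D and RAmy3E as a check of direction, and 3 genes nearest to IVD, D2HGDH and ETF-QO. The genes, lists and tests were chosen with earlier results of these data known. CYC1, CYC2 and RISP were taken out of the electron transport list by their synonyms, after values were seen. Replicate numbers were checked as pairs through the correlation of same-numbered arrays' deviations from their group means. These were 0.565, 0.442 and 0.494 between 24 and 48 h, so the numbers pair there by this check alone. Between 12 and 24 h they were -0.192, -0.033 and 0.426, while 12 h array 2 and 24 h array 1 reached 0.508. Python 3.11.15 (pandas 2.3.3, numpy 2.4.6, matplotlib 3.10.9) wrote the tables and figures.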

Additional observations from a re-analysis of the deposited data

Results flagged for a closer look

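For 4 genes the 12 h response differed between the controls, with the difference itself tested in limma: 2.96 for IVD, 2.63 for ETF-QO, 2.31 for D2HGDH and 1.75 for ETFB, all as the log2 ratio against sucrose minus that against sorbitol. In each case the 3 arrays against sucrose were above 0 and the 3 arrays against sorbitol below it. Against sorbitol the sign rests on the dye labels alone. With it turned, the differences were 2.61 for IVD, 1.88 for D2HGDH, 0.66 for ETFB and 0.56 for ETF-QO, of which those of IVD and D2HGDH passed.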

How the results depend on the processing

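The 6 genes kept their direction against sucrose under every alternative run except ETFA at 24 h, which was -0.10 on probe 9313. Genes called at 24 h, 5 as reported, were 2 with only the arrays of that time, and 3 without the sorbitol arrays, with least-squares p-values, or where every probe had to pass. The 6 genes of 12 h became 4 under that last rule, without ETFA (probe 9313, limma adjusted p = 0.12) and MCCA (probe 1731, 0.112). At 48 h, 5 became 2 with only the arrays of that time and 3 where every probe had to pass. ETFA could not meet that rule at 48 h, since its probe 9313, blank on array 2, was not tested there. Against sorbitol, 0 became 2, ETFB and ETF-QO, both lower, with only those arrays, arrays scaled to a common spread, quantile normalization or array weights, where the features called lower went from 0 to 17.6%, 7.82%, 10.4% and 18.6%. The count of genes higher in sorbitol than in sucrose, 4, was 1 with least-squares p-values (ETF-QO) and 1 without the arrays numbered 3, an alternative chosen after seeing the data, where none of the 4 passed and MCCA did (adjusted p = 0.0372). It was 3 with the sign against sorbitol turned, 5 with only the arrays compared or scaled, and 6 with quantile normalization or array weights. Leaving out 1 array in turn gave 3 to 6 genes at 12 h (3 without 12 h array 1), 3 to 6 at 24 h, 3 to 5 at 48 h (3 without 48 h array 2) and 2 to 5 for sorbitol over sucrose. The cause was not tested. With the replicate number as a block, 6, 6 and 5 genes were called at 12, 24 and 48 h, MCCA joining at 24 h (adjusted p = 0.00531) and at sorbitol over sucrose (0.0142). MCCA also passed at 24 h without array 3 of 12, 24 or 48 h or 48 h array 2 (0.0261 to 0.0474), and at sorbitol over sucrose without 48 h array 3 (0.0435). The block changed no other call of the 6 genes, and between 24 and 48 h, with only those arrays, 0 of the 6 passed. The numbers of the 12 h and sorbitol arrays were not borne out as pairs by the correlation check, which limits the block results that use them.

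The other changes of sign concerned values that were not called, and the cause was not tested. Against sorbitol ETFA was -0.08 on probe 11107, and MCCA 0.00 without the arrays numbered 3 and -0.31 to 0.00 without 1 array. For 24 minus 12 h, ETFA was 0.03 on probe 11107, ETFB 0.03 and D2HGDH 0.12 with arrays scaled, and D2HGDH 0.08 with array weights. Without 1 array ETFB ran from -0.36 to 0.13 and D2HGDH from -0.75 to 0.39. For 48 minus 24 h, ETFA was -0.06 on probe 11107, ETFB 0.13 and IVD 0.08 without the arrays numbered 3, and MCCA -0.21 scaled, -0.19 quantile normalized, -0.31 weighted and -0.08 on probe 1731. Without 1 array ETFB ran from -0.38 to 0.00, IVD from -0.56 to 0.10, ETF-QO from -0.63 to 0.07 and MCCA from -0.25 to 0.59. For 48 minus 12 h, ETFA was 0.19 and ETFB 0.09 without the arrays numbered 3, and without 1 array ETFA ran from -0.3 to 0.16, D2HGDH from -0.97 to 0.17 and MCCA from -0.98 to 0.04.

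Over all features, the alternatives gave 382 to 2164 calls at 12 h (1660 as reported), 368 to 4039 at 24 h (1634), 890 to 4935 at 48 h (4307), 0 to 7342 against sorbitol (10), 0 to 23 for 48 minus 12 h (1) and 23 to 2213 for sorbitol over sucrose (266). Signal over background is unknown here, so what dim signal limits could not be read. Lists without synonyms were not run, since nearly all symbols are locus numbers, nor were promoter motifs.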
